A study of Mus musculus with 12 samples.

Results

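The genes described here encode 10 sensors, adaptors and transcription factors of innate immunity that respond to double-stranded RNA or to DNA in the cytosol: *Ifih1*, *Ddx58*, *Tlr3*, *Eif2ak2*, *Zbp1*, *Mb21d1*, *Mavs*, *Tmem173*, *Irf3* and *Irf7*. They were listed by name and by no measured threshold, and are 10 of the 24453 genes in the count table. The 12 libraries come from mouse embryonic fibroblasts (MEFs) of C57BL6/J background, in 4 lines with 3 libraries each. Each line descends from TM6 MEFs, which were immortalized with SV40 large T antigen and carry floxed alleles of *Pnpt1*, the gene of the mitochondrial exoribonuclease PNPase (genotype Pnpt1 neo-flox/neo-flox). TM6 received no treatment. The rho0 MEFs are TM6 cells exposed for 3 weeks to ditercalinium at 750 ng/mL, a drug that removes mitochondrial DNA, and they keep the floxed, unexcised *Pnpt1*. PKO-1 and PKO-6 are PNPase knockout lines that grew from TM6 after an adenovirus delivered Cre recombinase, and by the study's own characterization they lack mitochondrial DNA as well, so loss of PNPase and loss of mitochondrial DNA come together in them. All 4 lines grew in medium with uridine at 50 µg/mL. The rho0 line and each PKO line grew from 1 colony, so the spread between the 3 libraries of a line is a spread between cultures of that clone, and a line's treatment and its clone cannot be told apart.

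The 2 RNA helicases of this group, MDA5 (*Ifih1*) and RIG-I (*Ddx58*), bind double-stranded RNA in the cytosol and pass the signal to MAVS on the outer mitochondrial membrane. TLR3 binds double-stranded RNA in endosomes, PKR (*Eif2ak2*) phosphorylates the translation factor eIF2alpha when such RNA is present, and ZBP1 binds left-handed (Z-form) nucleic acids and engages the kinase RIPK3. The enzyme cGAS (*Mb21d1*) binds cytosolic DNA and makes a cyclic dinucleotide that activates STING (*Tmem173*). The branches of MAVS, TLR3 and STING meet at kinases such as TBK1, which activates IRF3, and IRF3 and IRF7 then switch on the genes of type I interferons. Fibroblasts are known to use these pathways against viruses, and many of the sensors are themselves induced by interferon.

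Interferon acts on its target genes through a DNA element with paired GAAA repeats, and a search for it shows which members carry the letters of that element close to their start. The motif, GAAA followed by any 2 bases and again GAAA, was searched on both strands of the RefSeq promoters of GRCm38.p6, each reaching from 250 bases before the transcription start to 50 bases after it, with overlapping matches allowed. Promoters of 8 members are in the RefSeq table (*Mb21d1* under its newer symbol *Cgas*), and 3 of these genes hold a match. Counting a gene where any of its promoters matches, 3.99% of all 27025 genes hold one (3.44% of the 32851 promoters). Of the interferon stimulated target genes listed further on, 12 of 26 (46.2%) do. The 3 matches are shown in windows of 30 bases in the direction of transcription, with the match in capitals. They lie just downstream of the start, at chr2:62646206-62646235, chr4:40239804-40239833 and chr17:78882535-78882564, on the minus strand in each case.
Ifih1: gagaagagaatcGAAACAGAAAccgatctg
Ddx58: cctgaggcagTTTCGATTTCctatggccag
Eif2ak2: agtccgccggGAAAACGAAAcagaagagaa
Counted from the start, the match takes bases 33 to 42 in *Ifih1*, 3 to 12 in *Ddx58* and 19 to 28 in *Eif2ak2*. In *Ddx58* the match is on the opposite strand. A match describes letters and not a bound site, and these 3 genes are the RNA sensors whose values are given next together with *Tlr3*, which has no match in this window.

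The libraries held 47164860 to 67991378 estimated counts, of which *Rn45s*, the ribosomal RNA precursor, took 12.2% to 19.6%. The targeted gene *Pnpt1* had 3131 ± 262 normalized counts (mean ± SD of 3 libraries, with counts scaled to a library of mean size) in TM6, against 5271 ± 230 in rho0, 1240 ± 44.3 in PKO-1 and 1944 ± 250 in PKO-6. It fell in each PKO line but stayed measurable, and the counts cover the whole gene, not only the part that Cre excises. Of 9 fibroblast markers, 8 were expressed in each line, and *Thy1* reached no more than 5 counts in any library. Their summed level ranged from 538200 to 586100 normalized counts in TM6, 451900 to 504800 in rho0, 608400 to 658300 for PKO-1 and 355600 to 396500 for PKO-6. Of 7 leukocyte and macrophage markers, 5 had 3 counts or fewer in every library, and *Adgre1* and *Cd3e* were at 0. The summed leukocyte level was 85.0 to 115.0 normalized counts in TM6, 99.8 to 172.0 in rho0, 92.7 to 110.7 in PKO-1 and 174.1 to 212.3 in PKO-6, most of it from *Cd68*. Endothelial markers summed to 44.9 to 86.75 normalized counts in TM6, 20.34 to 32.13 in rho0, 27.92 to 55.95 in PKO-1 and 158.0 to 177.2 in PKO-6. *Kdr* was the largest part in each line, with a mean of 141.7 in PKO-6. Epithelial markers summed to 254.2 to 276.1 in TM6, 408.7 to 470.7 in rho0, 815.0 to 842.4 in PKO-1 and 106.5 to 135.8 in PKO-6. This sum follows *Krt18*, with means of 241.8, 430.1, 816.4 and 8.0 in the same order. The other epithelial markers, *Epcam*, *Cdh1* and *Krt8*, were higher in PKO-6 than in PKO-1, *Epcam* with means of 88.0 and 1.46. The part of these marker levels in the results was not tested. In bulk RNA, fewer cells that express a gene and less RNA per cell cannot be told apart.

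Compared per transcript length, as TPM (transcripts scaled to the same total in every library), the members spanned a wide range in TM6. STING's gene *Tmem173* (26.1 ± 1.19 TPM) and *Eif2ak2* (24.7 ± 0.580) were the highest, and their libraries overlapped. *Mavs* (19.1 ± 0.753), *Irf3* (13.8 ± 0.725), *Mb21d1* (10.9 ± 0.352), *Ddx58* (7.27 ± 0.105), *Ifih1* (4.06 ± 0.151), *Tlr3* (1.84 ± 0.235), *Irf7* (0.907 ± 0.212) and *Zbp1* (0.083 ± 0.035) followed, with no overlap between neighbours (SD, n = 3 each). In the derived lines *Tlr3* stood above *Ifih1*. *Tlr3* had 2.93 ± 0.277 TPM in rho0, 3.39 ± 0.193 in PKO-1 and 2.54 ± 0.525 in PKO-6, and *Ifih1* had 0.963 ± 0.040, 1.54 ± 0.123 and 0.923 ± 0.093 (SD, n = 3 each). In rho0 the libraries of *Tlr3* overlapped those of *Ddx58*, at 3.04 ± 0.233 TPM. *Irf7* stayed below 1 TPM on average in each line.

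**Figure D1:**
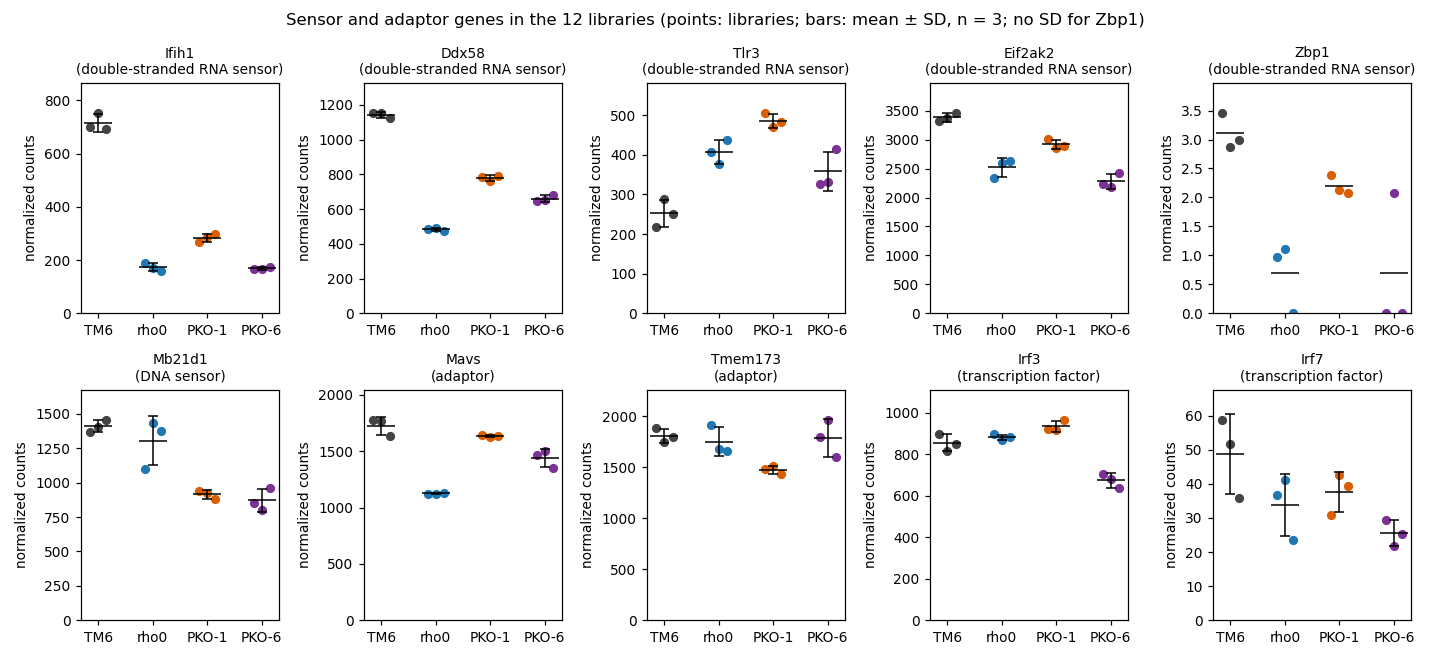
Normalized counts (y axis, from 0, a scale of its own for each gene) of the 10 genes in the 12 libraries, by line (x axis), with points for libraries and bars for the mean ± SD (n = 3; no SD for *Zbp1*). The TM6 libraries of *Ifih1* and *Ddx58* sit above every derived library, those of *Tlr3* below, and *Zbp1* has next to no counts.

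The comparison of each derived line with TM6 asks how the level of these genes differs in cells without mitochondrial DNA (rho0) and in cells without both PNPase and mitochondrial DNA (PKO-1 and PKO-6). A gene was called where the adjusted p (edgeR's quasi-likelihood test, Benjamini-Hochberg adjustment) was below 0.01 and the absolute log2 fold change above 0.5. Of the 10 members, 9 had enough counts to be tested. In rho0 against TM6, 4 members were called, 1 higher and 3 lower, where 42.1% of the 14026 tested genes were called. In PKO-1 against TM6, 4 were called, 1 higher and 3 lower, against 34.3% of tested genes. In PKO-6 against TM6, 6 were called, 1 higher and 5 lower, against 41.3% of tested genes. Split by direction, the background was 20.7% up and 21.4% down for rho0, with 16.4% and 17.9% for PKO-1. For PKO-6 it was 21.9% up and 19.4% down. Whether the share of members differs from the background was not tested in any line, and with 9 members each share rests on few genes. Libraries of the line and of TM6 did not overlap for 5, 7 and 8 of the 9 members, against 72.8%, 71.8% and 71.9% of tested genes. The median log2 fold change of the 9 members was -0.425, -0.298 and -0.569, beside 0.018, 0.001 and 0.014 over all tested genes. The 3 comparisons share the TM6 libraries and are not independent of each other.

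Among the RNA sensors, *Ifih1* (chromosome 2, 62595793 to 62646255, minus strand, mm10 here and in what follows) fell furthest. Its normalized counts were 699.5, 752.8 and 693 in the 3 TM6 libraries, 188.9, 169.5 and 159.7 in rho0, 266.7, 287.6 and 296.8 in PKO-1, and 165.4, 165.8 and 175.5 in PKO-6. Every derived library was lower than every TM6 library, and PKO-1 stood above the other derived lines. The level in TM6 was 4.13 times that in rho0 (log2 fold change -2.05, SE 0.0904, edgeR adjusted p = 2.07e-10), 2.52 times that in PKO-1 (-1.33, SE 0.0869, adjusted p = 1.37e-08) and 4.23 times that in PKO-6 (-2.08, SE 0.0899, adjusted p = 1.27e-10). Of all tested genes, 4.83% had a lower log2 fold change than *Ifih1* in rho0, 8.18% in PKO-1 and 4.09% in PKO-6.

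*Ddx58*, the gene of RIG-I (chromosome 4, 40203777 to 40239825, minus strand), also fell in all 3 derived lines. It had 1153, 1154 and 1123 normalized counts across the TM6 libraries, 483.3, 493.1 and 475.7 in rho0, 785.7, 759.4 and 791.2 in PKO-1, and 648.5, 649.8 and 682.6 in PKO-6. Libraries of the 4 lines did not overlap, in the order TM6, PKO-1, PKO-6 and rho0. The log2 fold change against TM6 was -1.24 in rho0 (SE 0.0597, edgeR adjusted p = 4.76e-10), -0.55 in PKO-1 (SE 0.0582, adjusted p = 1.68e-06) and -0.79 in PKO-6 (SE 0.0584, adjusted p = 3.06e-08).

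*Tlr3* (chromosome 8, 45395665 to 45410539, minus strand) moved the other way. It had 218.8, 287.6 and 251.3 normalized counts across the TM6 libraries, 407.8, 376.7 and 436.6 in rho0, 505.9, 470.7 and 483 in PKO-1, and 326.7, 332.7 and 415.9 in PKO-6. No derived library overlapped TM6. The rise over TM6 was 1.61-fold in rho0 (log2 fold change 0.69, SE 0.119, edgeR adjusted p = 0.000147), 1.93-fold in PKO-1 (0.95, SE 0.119, adjusted p = 9.43e-06) and 1.42-fold in PKO-6 (0.51, SE 0.119, adjusted p = 0.00175). The PKO-6 value lies at the fold threshold. The call was lost at 0.38 without TM6 replicate 1 (adjusted p = 0.0183), at 0.39 without PKO-6 replicate 3 and at 0.47 without any of the rho0 libraries (adjusted p = 0.00366, 0.00375 and 0.00399), and with other scalings or fits at 0.47 to 0.50. The tested genes of its chromosome, chromosome 8, had a median log2 fold change of -0.18 in rho0, -0.113 in PKO-1 and -0.428 in PKO-6, and relative to these medians *Tlr3* was higher by 0.87, 1.06 and 0.934.

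*Eif2ak2*, the gene of the kinase PKR (chromosome 17, 78852550 to 78882572, minus strand), was lower in every derived library than in TM6, but by less. Its normalized counts were 3322, 3370 and 3463 in TM6, 2340, 2589 and 2638 in rho0, 3012, 2855 and 2895 in PKO-1, and 2226, 2191 and 2429 in PKO-6. It fell in PKO-6 (log2 fold change -0.57, SE 0.0566, edgeR adjusted p = 7.08e-07). The differences of -0.42 in rho0 (SE 0.0566, adjusted p = 1.34e-05) and -0.21 in PKO-1 (SE 0.0564, adjusted p = 0.00451) stayed under the fold threshold. Relative to the median of chromosome 17, which was 0.252, 0.199 and 0.193 in the 3 comparisons, *Eif2ak2* came to -0.677 in rho0, which passes the threshold, -0.412 in PKO-1 and -0.762 in PKO-6.

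*Zbp1*, the sensor of Z-form nucleic acids, was at the limit of detection. It had 4, 3 and 3 counts in the TM6 libraries, 1, 1 and 0 in rho0, 2, 2 and 2 in PKO-1, and 0, 2 and 0 in PKO-6. No fold is given for so few counts, and a difference between lines was not detectable at this depth.

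The gene of the DNA sensor cGAS (chromosome 9, 78430518 to 78443237, minus strand) differed between the PKO lines and the other lines. *Mb21d1* had 1371, 1403 and 1457 normalized counts across the TM6 libraries, 1101, 1434 and 1378 in rho0, 940.4, 923.4 and 881.2 in PKO-1, and 849.2, 800.1 and 964.7 in PKO-6. All 6 PKO libraries were below all 6 others, whereas rho0 and TM6 overlapped. The log2 fold change against TM6 was -0.62 in PKO-1 (SE 0.0933, edgeR adjusted p = 4.73e-05), -0.69 in PKO-6 (SE 0.093, adjusted p = 1.35e-05) and -0.11 in rho0 (adjusted p = 0.28). In PKO-1 the tested genes of chromosome 9, where *Mb21d1* lies, had a median of -0.391, and relative to it *Mb21d1* was at -0.234, short of the fold threshold. In PKO-6 the chromosome median was 0.007 and the relative value -0.702.

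Of the adaptors, *Mavs* (chromosome 2, 131234063 to 131248024, plus strand) fell in rho0 alone among the 3 comparisons with TM6. It had 1779, 1765 and 1634 normalized counts across the TM6 libraries, 1123, 1121 and 1133 in rho0, 1645, 1628 and 1638 in PKO-1, and 1470, 1503 and 1354 in PKO-6. Each rho0 library was below those of every other line. The log2 fold change was -0.62 in rho0 (SE 0.0541, edgeR adjusted p = 2.09e-07), -0.08 in PKO-1 (adjusted p = 0.225) and -0.26 in PKO-6 (adjusted p = 0.000615, under the fold threshold). A direct test set PKO-1 above rho0 by 0.54 on the log2 scale (SE 0.0543, adjusted p = 1.29e-06). PKO-6 was above rho0 by 0.36 (SE 0.0542, adjusted p = 9.38e-05), which is under the fold threshold.

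The gene level of STING was nearly flat. *Tmem173* had 1885, 1747 and 1802 normalized counts across the TM6 libraries, 1919, 1681 and 1662 in rho0, 1480, 1511 and 1431 in PKO-1, and 1799, 1967 and 1600 in PKO-6. Only the PKO-1 libraries lay below all of TM6, by -0.30 on the log2 scale (SE 0.0759, edgeR adjusted p = 0.00352), which is under the fold threshold. The tested genes of chromosome 18 had medians of 0.424 in rho0, 0.417 in PKO-1 and 0.341 in PKO-6, and relative to them *Tmem173* came to -0.47, -0.714 and -0.36, of which the PKO-1 value passes the threshold.

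**Figure D2:**
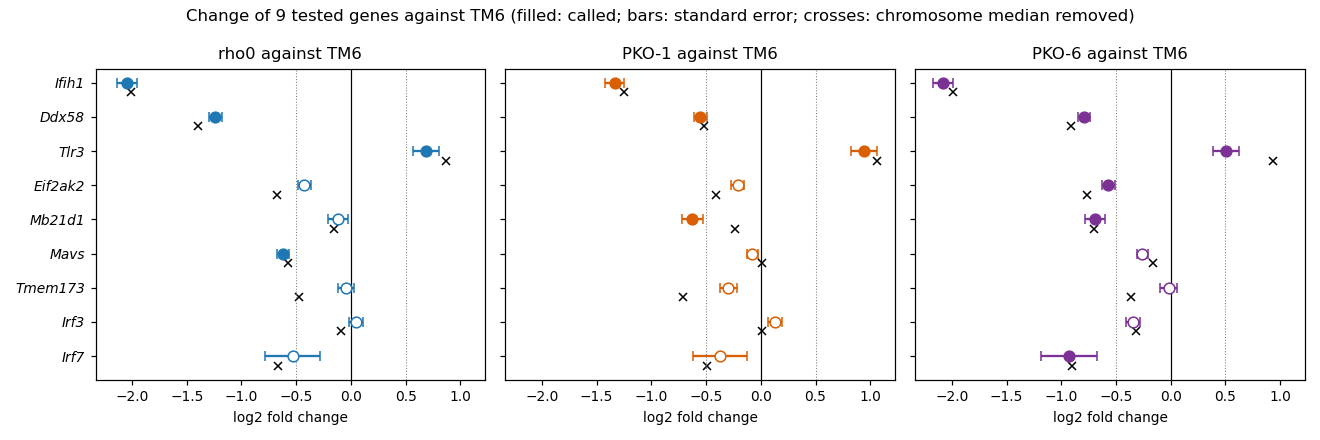
Log2 fold change against TM6 (x axis) of the 9 tested genes (y axis) in rho0, PKO-1 and PKO-6, with bars for the standard error, filled points for called genes, crosses for the value after the median of the gene's chromosome is removed and dotted lines at the fold threshold of 0.5. *Ifih1* and *Ddx58* are on the left and *Tlr3* on the right in all 3 panels, and for *Mb21d1* in PKO-1 the cross falls inside the threshold.

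Although the gene level of *Tmem173* hardly moved, the estimated shares of its transcripts differed between TM6 and the derived lines. The table splits the gene, which lies on chromosome 18 from 35733678 to 35740554 (mm10, minus strand), into 3 RefSeq transcripts. One of them, NM_001289591.1, has 7 exons and lacks the 90-base exon 2 of the other 2, which have 8, and its coding sequence already begins in exon 1. This transcript took 18.79%, 17.27% and 15.19% of the gene's estimated counts in the TM6 libraries, 5.31%, 4.56% and 6.81% in rho0, 3.57%, 3.53% and 4.72% in PKO-1, and 2.04%, 3.53% and 2.04% in PKO-6. Every derived library was below every TM6 library. The mean share (± SD, n = 3) was 17.08% ± 1.81 in TM6, 5.56% ± 1.14 in rho0, 3.94% ± 0.68 in PKO-1 and 2.54% ± 0.86 in PKO-6. NM_028261.1, the main transcript, had a share of 80.32% ± 1.61 in TM6 and of 93.61% ± 1.63, 95.09% ± 1.16 and 94.94% ± 1.49 in the derived lines. The exact permutation test gave p = 0.1 for each of these differences, the smallest that 3 libraries against 3 allow, and 0.206 after adjustment over the 33 comparisons made for 11 transcripts of the members. Besides these 2 transcripts, 1 other stood apart from TM6 in all 3 lines, NM_001206382.1 of *Mavs*, with a mean of 4.32% ± 1.65 (SD, n = 3) of the gene's counts in TM6, 9.47% ± 0.96 in rho0, 8.32% ± 1.22 in PKO-1 and 12.68% ± 5.89 in PKO-6. All of these shares are estimates that RSEM makes from reads shared by overlapping transcripts.

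**Figure D3:**
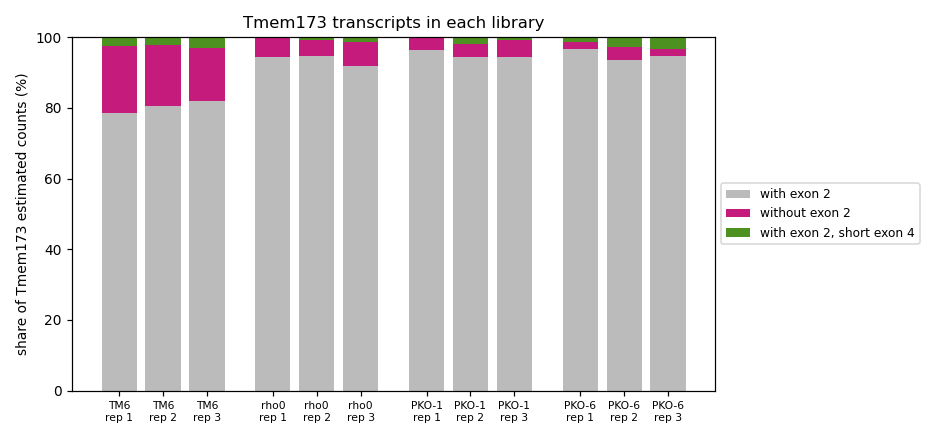
Share of the estimated *Tmem173* counts (y axis, percent) given to each of 3 transcripts in each of the 12 libraries (x axis). The transcript without exon 2 takes 15.19% to 18.79% in TM6 and 2.04% to 6.81% in the derived lines.

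The transcription factors changed little or were scarce. *Irf3* had 897.5, 816.8 and 851.6 normalized counts across the TM6 libraries, 896, 870.9 and 881 in rho0, 921.4, 917 and 966 in PKO-1, and 705.9, 679.9 and 636 in PKO-6. PKO-6 was below all other lines, by -0.34 against TM6 (log2 scale, SE 0.0641, edgeR adjusted p = 0.000275), which is under the fold threshold. *Irf7*, which interferon induces in most cells, had 58.79, 51.59 and 35.9 normalized counts across the TM6 libraries, 36.81, 41 and 23.45 in rho0, 30.95, 42.6 and 39.3 in PKO-1, and 29.48, 21.76 and 25.21 in PKO-6. It fell in PKO-6 (log2 fold change -0.93, SE 0.257, edgeR adjusted p = 0.00527), while TM6 overlapped rho0 (-0.53, adjusted p = 0.0742) and PKO-1 (-0.37, adjusted p = 0.207). The PKO-6 call was lost without TM6 replicate 1 (-0.81, adjusted p = 0.0234), TM6 replicate 2 (-0.89, adjusted p = 0.0167), PKO-6 replicate 2 (-0.87, adjusted p = 0.0173) or PKO-6 replicate 3 (-0.92, adjusted p = 0.0159).

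The direct comparisons among the derived lines set each PKO line beside rho0, which keeps *Pnpt1* but lacks mitochondrial DNA like them, and the PKO clones beside each other. In PKO-1 against rho0, 4 members were called, 3 higher and 1 lower, against 32.7% of tested genes (15.1% higher and 17.6% lower). *Ifih1* (log2 fold change 0.71, SE 0.0922, edgeR adjusted p = 1.44e-05), *Ddx58* (0.69, SE 0.0601, adjusted p = 3.33e-07) and *Mavs* were higher in PKO-1, and *Mb21d1* was lower (-0.51, SE 0.0937, adjusted p = 0.000316). The *Mb21d1* difference came to -0.071 relative to its chromosome. It also fell under the fold threshold, at -0.45, -0.48 and -0.48, without rho0 replicate 2, rho0 replicate 3 or PKO-1 replicate 3. In PKO-6 against rho0, 1 member was called, *Mb21d1* (-0.58, SE 0.0934, adjusted p = 0.000154), against 21.5% of tested genes (13.3% higher and 8.16% lower). *Ifih1* differed there by -0.03 (SE 0.0941, adjusted p = 0.777). In PKO-1 against PKO-6, 1 member was called, *Ifih1*, higher in PKO-1 by 0.75 (SE 0.0915, adjusted p = 8.56e-06), against 29.1% of tested genes (11.5% higher and 17.6% lower). *Irf7* differed between the clones by 0.56 (SE 0.267, adjusted p = 0.0875), which did not pass the test, and *Irf3* (0.47, SE 0.0642, adjusted p = 2.36e-05) and *Tlr3* (0.44, SE 0.117, adjusted p = 0.00483) stayed under the fold threshold. Libraries did not overlap for 8, 4 and 8 of the 9 members in these 3 comparisons, against 69.5%, 56.7% and 66.5% of tested genes.

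**Figure D4:**
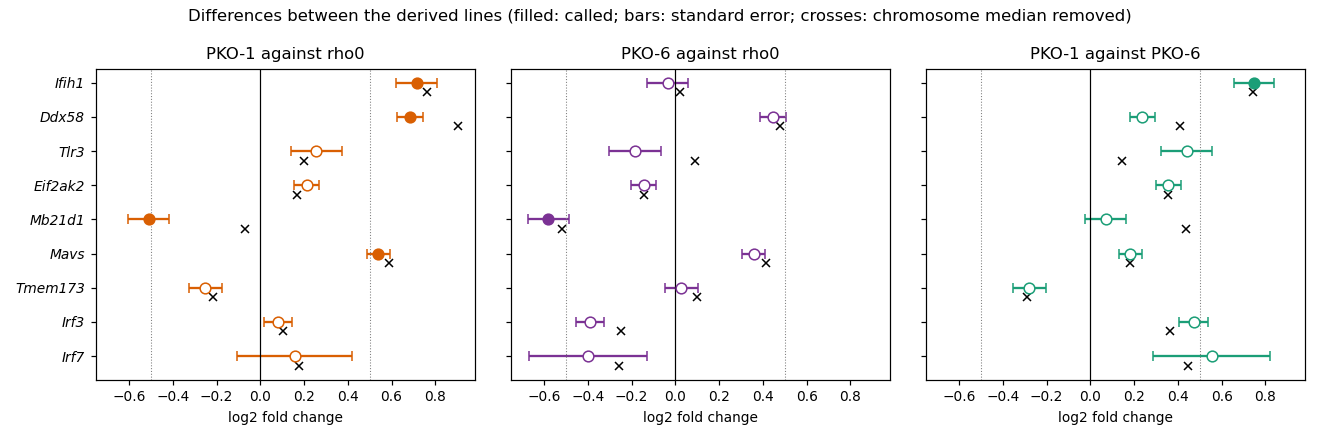
Log2 fold change (x axis) of the 9 tested genes (y axis) in PKO-1 against rho0, PKO-6 against rho0 and PKO-1 against PKO-6, drawn as in the plot of changes against TM6. *Ifih1* and *Ddx58* are higher in PKO-1 than in rho0, and *Ifih1* alone is called between the 2 clones.

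The 6 PKO libraries, 3 cultures of each of 2 clones, were also pooled and fitted as if independent. The gap between clones then adds to the spread, but the p-values do not measure a spread over clones. In this fit 4 members were called against TM6, 1 higher and 3 lower, where 25.7% of tested genes were called, 13.5% higher and 12.2% lower. These were *Ifih1* (log2 fold change -1.66, SE 0.202, edgeR adjusted p = 4.49e-05), *Ddx58* (-0.67, SE 0.0818, adjusted p = 4.7e-05), *Mb21d1* (-0.66, SE 0.0881, adjusted p = 8.96e-05) and *Tlr3* (0.74, SE 0.167, adjusted p = 0.00332). The *Tlr3* call was lost without TM6 replicate 1 (0.62, adjusted p = 0.0293) or TM6 replicate 3 (0.74, adjusted p = 0.0167). *Mb21d1* came to -0.50 relative to its chromosome, just short of the threshold. Against rho0, 2 members were called, *Ddx58* (0.57, SE 0.0862, adjusted p = 0.000612) and *Mb21d1* (-0.55, SE 0.0885, adjusted p = 0.000948), where 10.7% of tested genes were called, 6.33% higher and 4.36% lower. The pooled PKO libraries did not overlap TM6 for 5 of the 9 members and rho0 for 3, beside 47.7% and 32.0% of tested genes. *Mb21d1* dropped out without rho0 replicate 2 (-0.48, adjusted p = 0.00886), and relative to its chromosome it came to -0.339, short of the threshold.

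The genes whose pattern was most like that of a member were sought for the 3 members with the widest range between line means, as the smallest root mean square difference of centred log2 CPM values over 12 libraries among 14026 genes. For *Ifih1* these were *Maged1* (0.096), *Igf2bp3* (0.114) and *Bmp4* (0.153). For *Ddx58* they were *Bcor* (0.070), *Car5b* (0.071) and *Skp2* (0.073), and for *Tlr3*, *Arhgap5* (0.093), *Pibf1* (0.097) and *Slc25a46* (0.101). *Maged1*, for example, had a mean of 21309 normalized counts in TM6, 5285 in rho0, 7946 in PKO-1 and 5244 in PKO-6.

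Beyond the members, 12 gene lists followed the wider pathway, and 149 of their genes were tested. Against TM6, 26 were called higher and 42 lower in rho0, 21 higher and 36 lower in PKO-1, and 23 higher and 45 lower in PKO-6. Called genes made up 20.7% (higher) and 21.4% (lower) of all tested genes in rho0, 16.4% and 17.9% in PKO-1, and 21.9% and 19.4% in PKO-6. No set test was run on the lists.

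Of 13 tested helicases and cofactors that help detect double-stranded RNA, 4 rose and 2 fell in rho0, 3 rose and 0 fell in PKO-1, and 3 rose and 3 fell in PKO-6. *Zc3hav1*, the antiviral protein ZAP that binds CpG-rich viral RNA, had 4875 ± 140.0 normalized counts in TM6 and 12390 ± 340.0 in rho0 (log2 fold change 1.35), and 8006 ± 114.0 in PKO-6 (0.72). *Dhx58*, the helicase LGP2 of the same family as RIG-I and MDA5, fell in PKO-6 from 121.5 ± 2.93 to 50.1 ± 18.3 (-1.26), and in rho0 it had 131.2 ± 16.6 (SD, n = 3 each). *Tkfc* rose in all 3 lines, by 0.77, 0.95 and 0.77. *Zcchc3* rose in rho0 (0.65) and fell in PKO-6 (-1.10).

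Among 17 tested genes that relay the MAVS and TLR3 signal, 2 rose and 5 fell in rho0, 3 rose and 5 fell in PKO-1, and 2 rose and 6 fell in PKO-6. *Tradd*, an adaptor of this relay, fell by 0.57, 0.57 and 1.03 on the log2 scale. *Tbkbp1*, which binds TBK1, rose from 76.8 ± 11.9 normalized counts (SD, n = 3) in TM6 to 423.5 ± 1.56 in rho0, 132.1 ± 10.4 in PKO-1 and 436.6 ± 33.2 in PKO-6. *Unc93b1*, which carries TLR3 to endosomes, rose in rho0 (0.89) and fell in PKO-1 (-2.97, from 88.6 ± 16.9 to 11.1 ± 4.45 normalized counts), and *Cd14* fell in rho0 (-0.86) and rose in PKO-1 (0.51).

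Of 21 tested genes of cytosolic DNA sensing and its control, 6 rose and 2 fell in rho0, 4 rose and 3 fell in PKO-1, and 6 rose and 4 fell in PKO-6. *Enpp1*, which degrades the cyclic dinucleotide made by cGAS, fell from 900.8 ± 81.3 normalized counts to 169.4 ± 19.4 in rho0, 426.6 ± 37.6 in PKO-1 and 286.7 ± 5.05 in PKO-6. *Samhd1*, which degrades deoxynucleotides, fell from 8968 ± 515.0 to 4491 ± 214.0, 5058 ± 181.0 and 3482 ± 161.0 (SD, n = 3 each). *Aim2*, a DNA sensor of inflammasomes, rose in PKO-6, from 8.89 ± 3.70 to 151.3 ± 29.4 (4.05). *Ifi204* rose in all 3 lines (2.05, 0.51 and 0.85), but it belongs to a family of near-identical copies between which reads can be misassigned.

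In the branch of PKR and its sister kinases, 3 of 11 tested genes rose and 2 fell in rho0, 3 rose and 0 fell in PKO-1, and 1 rose and 2 fell in PKO-6. *Ppp1r15a* (GADD34), which reverses the phosphorylation of eIF2alpha, rose from 1151 ± 25 normalized counts to 6652 ± 206.0 in rho0, 1862 ± 155.0 in PKO-1 and 5731 ± 653.0 in PKO-6. *Eif2ak3*, the kinase PERK, fell in rho0 (-1.04) and PKO-6 (-0.83), as did *Dnajc3*, an inhibitor of these kinases (-1.01 and -0.98), and *Npm1* rose in rho0 (0.83) and PKO-1 (0.50).

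Of 9 tested genes of the OAS and RNase L branch, which degrades RNA when double-stranded RNA is present, 0 rose in any line, and 4, 5 and 2 fell in rho0, PKO-1 and PKO-6. *Oas1a* fell in PKO-1, from 93.5 ± 15 to 16.2 ± 3.52 normalized counts, and had 92.3 ± 9.66 in rho0 and 117.2 ± 12.3 in PKO-6 (SD, n = 3 each). It is 1 of several close copies. Among 12 tested genes listed for the editing, decay or masking of double-stranded RNA, 2 rose and 2 fell in rho0. In each PKO line 1 rose and 3 fell, with *Pnpt1*, the gene targeted by Cre, among those that fell. *Adarb1*, an editing enzyme, fell in rho0 (-0.91) and PKO-1 (-0.72), and *Adarb2* rose in PKO-1 (0.82). *Adal*, a deaminase-like gene, is counted on this list although it is not known to act on double-stranded RNA. It rose in rho0 (1.02) and fell in PKO-1 (-3.15) and PKO-6 (-0.54).

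Next to *Zbp1*, 4 tested genes of the necroptosis branch held 1 that rose and 1 that fell in each line. *Ripk3*, the kinase that ZBP1 engages, averaged 1072 ± 39.4 normalized counts (SD, n = 3) in TM6, 99.3 ± 12.4 in rho0, 238.5 ± 11.4 in PKO-1 and 85.9 ± 13.1 in PKO-6. Its log2 fold changes were -3.43 (SE 0.117, edgeR adjusted p = 1.74e-11), -2.17 (SE 0.107, adjusted p = 8.5e-10) and -3.64 (SE 0.118, adjusted p = 6.83e-12). *Cflar*, an inhibitor of caspase activation, rose by 0.77, 1.07 and 1.34.

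Of 11 tested NF-kappaB genes, 0 rose in any line and 6, 4 and 3 fell, in rho0, PKO-1 and PKO-6. *Nfkbia*, an inhibitor and a target of NF-kappaB, fell by 1.39, 0.71 and 1.01 on the log2 scale, and *Rel*, a subunit, by 0.91, 0.77 and 1.36. *Nfkbie* (-0.98 and -0.87) and *Nfkb2* (-0.75 and -0.53) fell in rho0 and PKO-1. Among 5 other tested interferon regulatory factors, 1 rose and 2 fell in rho0, 0 rose and 2 fell in PKO-1, and 1 rose and 2 fell in PKO-6. *Irf1* fell in each line, from 1311 ± 69.5 normalized counts (SD, n = 3) in TM6 to 659.7 ± 24.3 in rho0, 641.7 ± 27.5 in PKO-1 and 459.6 ± 23.8 in PKO-6.

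Transcripts of the interferons themselves were scarce. Of 21 ligand genes in the table, 11 had 0 counts in all libraries, and 1, *Ifnz*, had enough to be tested and was not called in any comparison with TM6. *Ifnz* was called higher in PKO-6 than in rho0 (log2 fold change 0.95, SE 0.26, edgeR adjusted p = 0.00722). It had 31 to 37 counts in the PKO-6 libraries and 12 to 18 in those of rho0. The other ligand genes never exceeded 6 counts in a library and summed to 7 counts in TM6, 14 in rho0, 3 in PKO-1 and 22 in PKO-6. *Ifnb1*, the main interferon gene of fibroblasts, had 1 count over all 12 libraries. Of 14 tested interferon receptor and STAT genes, 1 rose in each line, and 6, 5 and 4 fell. *Ifngr1* (-1.04, -0.70 and -0.58) and *Ifngr2* (-0.80, -0.85 and -0.73), the chains of the interferon gamma receptor, fell in all 3. *Socs3*, a feedback inhibitor, fell in rho0 (-0.83) and PKO-6 (-1.25), and *Ptpn2* rose in rho0 (0.98).

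Of 31 tested interferon stimulated target genes, 6 rose and 10 fell in rho0, 5 rose and 8 fell in PKO-1, and 7 rose and 15 fell in PKO-6. Their median log2 fold change was -0.272, -0.153 and -0.53. *Isg15*, a ubiquitin-like protein, had 243.1 ± 23.6 normalized counts in TM6, 68.2 ± 8.89 in rho0, 50.7 ± 5.32 in PKO-1 and 19.8 ± 2.23 in PKO-6. *Ifit1*, which binds foreign RNA ends, had 642.5 ± 20.2, 96.7 ± 5.33, 297.6 ± 43.9 and 90.9 ± 9.22 in the same order. The chemokine gene *Cxcl10* fell from 747.9 ± 54.1 to 106.0 ± 3.50, 229.9 ± 37.9 and 89.0 ± 5.70 (SD, n = 3 each). *Ccl5*, also a chemokine, fell in rho0 (-2.39) and PKO-6 (-2.87), and in PKO-1 it was at -0.44 with an edgeR adjusted p of 0.0255. Between the derived lines, counting called genes, PKO-1 exceeded rho0 in 10 of the 31 targets and fell short of it in 5. Of all tested genes, 15.1% were called higher and 17.6% lower there. PKO-1 exceeded PKO-6 in 11 targets and fell short of it in 5, beside 11.5% higher and 17.6% lower of all tested genes. *Ifit1* (1.62 and 1.71), *Cxcl10* (1.11 and 1.37) and *Ccl5* (1.95 and 2.43) were among the higher in both, with edgeR adjusted p of 4.22e-06 at most. *Isg15* was higher than in PKO-6 (1.37) but at -0.43 against rho0 (edgeR adjusted p = 0.0312). *Tap1*, a peptide transporter of antigen presentation chosen here after its values were seen, was lower in PKO-1 than in both, at 85.1 ± 3.79 normalized counts (SD, n = 3) against 481.2 ± 53.4 in rho0 and 836.5 ± 63.5 in PKO-6. Its level in TM6 was 170.3 ± 9.31, so rho0 and PKO-6 stood above TM6 and PKO-1 below it. *Parp14*, *Psmb8* and *Psmb9*, likewise chosen after their values were seen, were also lower in PKO-1 than in rho0 and PKO-6. *Psmb8* and *Psmb9* had 0 to 2 counts in the PKO-1 libraries and 10 to 35 in those of rho0 and PKO-6, so few that no fold is given.

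**Figure D5:**
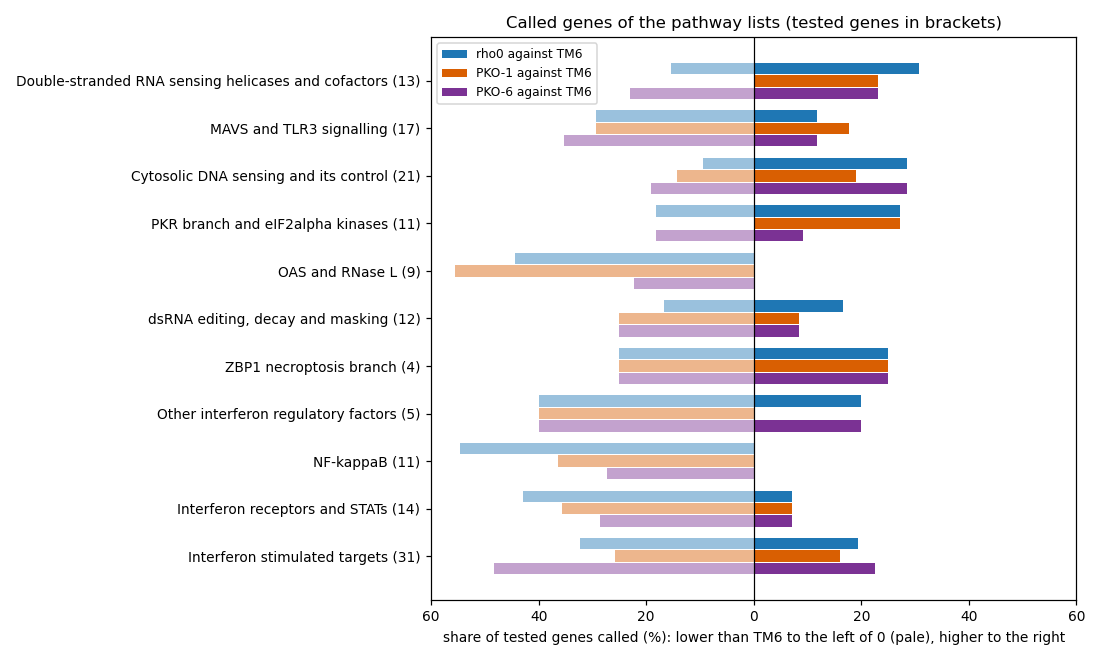
Share of the tested genes of 11 pathway lists (y axis, number tested in brackets) that were called higher (right of 0) or lower (left of 0, pale) than TM6 (x axis, percent), in rho0, PKO-1 and PKO-6. The NF-kappaB and the OAS and RNase L lists have bars on the lower side only, and the interferon ligands are left out because 1 was tested.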

How the data were processed

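RNA-seq data of 12 libraries, 3 for each of TM6, rho0, PKO-1 and PKO-6 MEFs, were used. The authors made strand-specific libraries depleted of ribosomal RNA, merged technical duplicates and ran RSEM 1.2.25 with bowtie2 against RefSeq transcripts of mm10. The deposited gene table holds expected counts (estimated counts, not normalized), and 12.5% of its values had decimals, so they were rounded. The deposited tables of each library hold TPM per transcript, summed here per gene. RNA was extracted with either of 2 methods, and which library had which is not given in the sources used here.

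In R 4.3.3, edgeR 4.0.16 kept 14026 genes (filterByExpr, minimum count 10), scaled by TMM and ran the quasi-likelihood test with the 4 lines as groups, and again with the PKO clones pooled. The Benjamini-Hochberg adjustment ran over all tested genes. The SE is the log2 fold change divided by the square root of F. Transcript shares were compared by two-sided exact permutation tests. Alternatives were DESeq2 1.42.0 (its size factors, and its Wald test), no filter, no *Rn45s*, only the compared groups, a replicate block, a fold threshold of 1, chromosome medians removed and each library left out. The test was tried on simulated data. Totals limit the precision of low genes such as *Zbp1* and *Irf7*.

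The members and gene lists were chosen with earlier results of these data known. Genes named besides the members are *Pnpt1*, the interferon ligands, up to 4 called genes of each list by the size of their change (mean of at least 50 normalized counts), and the 3 genes nearest in pattern to each of 3 members. Of the listed symbols, *Il28a*, *Il28b* and *Sting1* (a newer symbol of *Tmem173*) have no row in the table. *Zbp1* and *Tmem173* have no entry in the promoter table used. Another leukocyte marker is on a list withheld for evaluations and is not reported here.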

Additional observations from a re-analysis of the deposited data

Results flagged for a closer look

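*Ifih1* differed between the 2 PKO clones in its change against TM6, by 0.75 on the log2 scale, higher in PKO-1 (SE 0.0915, edgeR adjusted p = 8.56e-06). All 3 PKO-1 libraries (266.7 to 296.8 normalized counts) were above all 3 PKO-6 libraries (165.4 to 175.5). The value ranged from 0.72 to 0.79 when each of the 12 libraries was left out in turn. *Pnpt1* differed between the same clones by -0.65 (SE 0.0864, edgeR adjusted p = 1.92e-05). Whether the difference belongs to the clones or to the knockout was not tested, since each clone is 1 line.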

How the results depend on the processing

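Of 1440 values of single members under the alternatives, 1390 kept their side of the threshold, 46 lost a call and 4 gained one. A further 15 of these had the other sign in 10 comparisons of members that were called in neither setting and were at most 0.18 in size on the log2 scale. With a fold threshold of 1 on the log2 scale, the members called were 2 in rho0 against TM6, 1 each in PKO-1 and in PKO-6 against TM6, 0 in PKO-1 against rho0, 0 in PKO-6 against rho0, 0 in PKO-1 against PKO-6, 1 in PKO against TM6 and 0 in PKO against rho0, where 21.0%, 16.2%, 21.7%, 15.7%, 10.8%, 13.9%, 12.7% and 4.76% of tested genes were called. Removal of chromosome medians left 1 member, *Ddx58*, in PKO against rho0. When libraries were left out in turn, PKO-6 against TM6 had 4 to 6 called members, and PKO against TM6 and PKO-1 against rho0 had 3 to 4 each. PKO against rho0 had 1 to 2 (1 without rho0 replicate 2), and PKO-1 against PKO-6 had 1 to 2 (2 without PKO-6 replicate 1, with *Irf3* at 0.51, or without PKO-6 replicate 3, with *Tlr3* at 0.56). The remaining comparisons kept their number of called members. In these fits 13868 to 14294 genes were tested. Called were 5657 to 5962 genes in PKO-6 against TM6, 2874 to 3712 in PKO against TM6 and 4150 to 4908 in PKO-1 against rho0. For PKO against rho0 it was 841 to 1699, and for PKO-1 against PKO-6 3820 to 4178.

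Whether the replicate numbers of the labels pair the libraries is not settled by these data. Over 18 pairs with the same number, the correlation of deviations from the line means ran from -0.385 to 0.25, and 10 of 18 were over 0.1. Pairs with different numbers ran from -0.415 to 0.49, a range that overlaps it. With the number as a replicate block, the members called were 4 in rho0 against TM6, 4 in PKO-1 against TM6, 6 in PKO-6 against TM6, 4 in PKO-1 against rho0, 1 in PKO-6 against rho0, 1 in PKO-1 against PKO-6, 4 in PKO against TM6 and 2 in PKO against rho0, as without it. Of all 14026 tested genes, the fit with the block called 5849, 4761, 5776, 4524, 2952, 4027, 3113 and 1097 in these comparisons. Without the block it was 5902, 4810, 5799, 4590, 3014, 4087, 3607 and 1500. The order of members by level within a line was the same with counts per transcript length in place of TPM. At 0 to 4 counts a library, *Zbp1* cannot be compared at this depth.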
